A study of Saccharomyces cerevisiae with 12 samples.

Results

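The 57 genes described here encode large-subunit (60S) assembly factors of Saccharomyces cerevisiae, the proteins that build the large ribosomal subunit and then leave it. They were taken by a fixed list of systematic names and not by a measured value, and make up 57 of the 7126 genes in the count table. The list was chosen with earlier results of these data known. RNA-seq was performed in a wild type strain and in a strain whose Spt4 carries the substitutions T42A and S43A (Spt4T42AS43A, here Spt4-AA), the residues that the Hog1 stress kinase phosphorylates in this transcription elongation factor. The comparisons ask how the RNA levels of these genes changed upon osmostress and whether the change depended on the Spt4 residues. The 4 groups were Spt4-AA cells after 15 min in 0.4 M NaCl, wild type cells after the same treatment, Spt4-AA cells without stress and wild type cells without stress, with 3 biological replicates each. Both strains were BY4741 MATa with the ura3-delta 0, met15-delta 0, leu2-delta 0 and his3-delta 1 alleles, both carried SPT4 fused to TAP and marked with kanMX4, and both were grown in YPD at 30 °C to log phase. The tag is therefore shared by mutant and wild type, and untagged cells were not part of the series.

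Assembly of the 60S subunit starts in the nucleolus on the precursor of the 25S and 5.8S rRNA, goes on in the nucleoplasm and ends in the cytoplasm. RNA helicases, methyltransferases, GTPases and scaffold proteins join the precursor in turn, the large ATPase Rea1 strips some of them off, and an export adaptor takes the particle through the nuclear pore. In yeast the genes for these factors are known as a set that is expressed in step with growth, and many of their promoters hold a PAC element and an RRPE, short sequences bound by the repressors Dot6 and Tod6 (PAC) and by Stb3 (RRPE).

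The promoter sequences are shown because they are a feature the choice of genes did not use. The PAC core (GATGAG) and the RRPE core (GAAAAATTT) were searched on both strands in the 300 bases before each start codon in the R64 genome (sacCer3), and adjacent copies that share a base were each counted. The following stretches belong to the 5 genes with the largest strain difference upon osmostress and to the 3 with the smallest, written 5′ to 3′ on the strand of the gene. Capitals mark 1 PAC core (GATGAG or its reverse complement CTCATC) and, where the promoter holds one, the nearest RRPE core (GAAAAATTT or its reverse complement AAATTTTTC).
NOG2 (chrXIV:723267-723301, - strand, 189 to 155 bases before the start codon): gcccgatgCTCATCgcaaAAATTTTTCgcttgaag
NOG1 (chrXVI:370827-370862, + strand, 151 to 116 bases before the start codon): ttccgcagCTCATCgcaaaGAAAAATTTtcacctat
BRX1 (chrXV:186856-186892, - strand, 169 to 133 bases before the start codon): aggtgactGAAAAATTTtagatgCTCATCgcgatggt
RRS1 (chrXV:868197-868232, + strand, 143 to 108 bases before the start codon): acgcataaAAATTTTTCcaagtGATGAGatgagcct
SYO1 (chrIV:340303-340335, - strand, 201 to 169 bases before the start codon): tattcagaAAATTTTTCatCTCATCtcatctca
REA1 (chrXII:363930-363969, - strand, 231 to 192 bases before the start codon): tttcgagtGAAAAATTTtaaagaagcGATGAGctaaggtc
DBP10 (chrIV:394074-394095, + strand, 143 to 122 bases before the start codon): tttcaagcGATGAGatgaaatt
LOC1 (chrVI:148983-149004, + strand, 127 to 106 bases before the start codon): gtaacggcGATGAGgtgaagtt

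A PAC core was present in 52 of the 57 promoters (91.2%), against 1148 of 6001 promoters of all genes (19.1%). An RRPE core was present in 32 of the 57 (56.1%), against 6.57% of all promoters, and both cores in 28 (49.1%), against 3.15%. IPI3 was the 1 member with neither. In the members, 67 of 89 PAC cores (75.3%) lay 80 to 160 bases before the start codon, with a median distance of 121 bases, and 26 members had at least 2 of them. SYO1 had 6 PAC cores in a row, the most of any member, and part of that row is seen in the stretch printed above. In all promoters 37.2% of 1364 PAC cores lay in that window of 80 to 160 bases, with a median distance of 146 bases. The window lies around the members' own median distance, so these shares are descriptions and not a test. The 5 genes with the largest strain difference each held both cores, and so did REA1, while DBP10 and LOC1 held a PAC core without an RRPE core. A match to these letters describes the sequence and is not evidence that a factor binds there.

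The libraries held 12903162 to 21909524 counts on genes. Values are given as normalized CPM, which are counts scaled to a common library total after adjustment by the TMM factor. A gene was called changed between 2 groups at a Benjamini-Hochberg adjusted p under 0.05 in edgeR's quasi-likelihood test over 6040 genes and a change of at least 2-fold, and the difference in response between the strains was called at the adjusted p alone. Each of the 57 members passed the filter on low counts, and the lowest count of a member was 8, for SYO1 in a stressed wild type library. RNA was taken from bulk cultures with no spike-in named in the sources used here, so a change in RNA per cell and a change relative to the other RNAs cannot be told apart. Replicates 1 and 2 of the stressed Spt4-AA group carry library numbers apart from those of the other 10 libraries, and replicate 2 held 139 counts on the deleted genes LEU2, MET17 and URA3, against at most 2 in any other library. Counts are given below with and without these libraries, and their part in the results was not tested beyond that. The substitutions themselves cannot be seen in gene counts.

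Upon osmostress the RNA of these genes fell steeply in both strains, and at the median 2.72 times as much of it was left in Spt4-AA as in wild type cells. Summed over the 57 genes, the level was 1174, 1282 and 1160.0 normalized CPM in the stressed Spt4-AA libraries, against 568.5, 572 and 589.9 in the stressed wild type libraries. Without stress the sum was 7590, 7003 and 7067 in Spt4-AA and 7465, 6838 and 7071 in wild type. Each stressed mutant library thus lay above each stressed wild type library, while the unstressed strains overlapped. TIF6 alone gave 29.9% of the stressed Spt4-AA sum and 41.6% of the stressed wild type sum. Without TIF6 the sums were 845 ± 34.5 in Spt4-AA and 337 ± 34.2 in wild type upon osmostress (SD, n = 3 each), which is 12.9% of the unstressed mean in Spt4-AA and 5.24% in wild type.

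**Figure D1:**
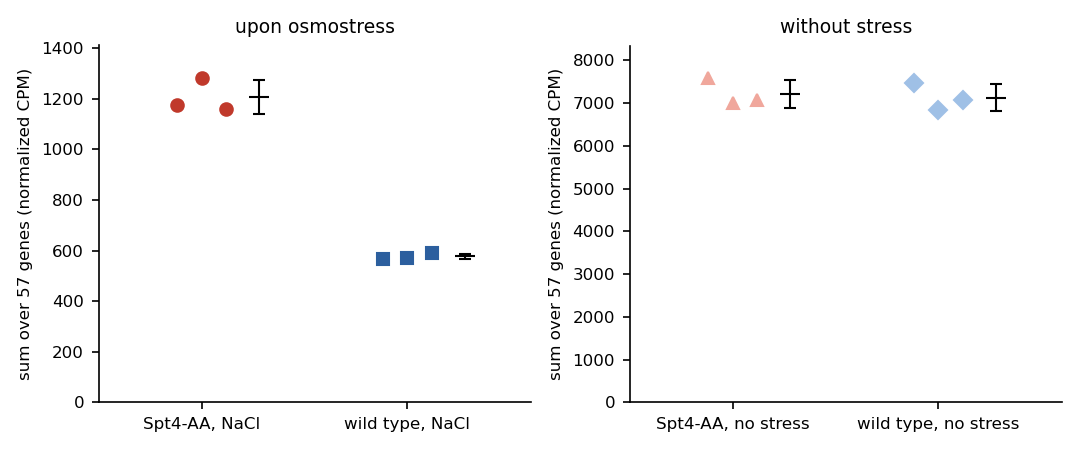
Sum of the normalized CPM of the 57 genes in each library upon osmostress (left) and without stress (right), with the mean and SD of 3 libraries as black bars. The 3 stressed Spt4-AA libraries lie between 1160.0 and 1282 and the 3 stressed wild type libraries between 568.5 and 589.9, while the unstressed groups overlap.

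In wild type cells, 57 of 57 members were called lower upon osmostress, beside 18.7% of all genes tested. The median log2 fold change (log2FC) was -4.47, a 22.2-fold fall, and the range ran from -7.00 for SYO1 to -1.53 for TIF6. In Spt4-AA cells, 56 of 57 were called lower, beside 14.9% of all genes tested, with a median log2FC of -2.91 (7.52-fold) and a range of -4.66 (SDA1) to -0.93 (TIF6). The median of all genes tested was 0.01 in Spt4-AA and 0.03 in wild type. The member not called in Spt4-AA, TIF6, fell by 0.93 on the log2 scale (SE 0.12, edgeR adjusted p = 6.21e-06), short of the 2-fold limit. TIF6 was called lower with scaling to ENO1 (log2FC -1.76), a fit in which the median of all genes in Spt4-AA was itself -0.81. It was also called lower without replicate 1 of unstressed Spt4-AA (-1.01) and without replicate 2 of stressed Spt4-AA (-1.0). In Spt4-AA cells the stressed mean was a median of 13.3% of the unstressed mean (4.0% to 52.6% by gene), against 4.5% in wild type (0.769% to 34.7%). It was under 5% for 2 members in Spt4-AA and for 31 in wild type.

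**Figure D2:**
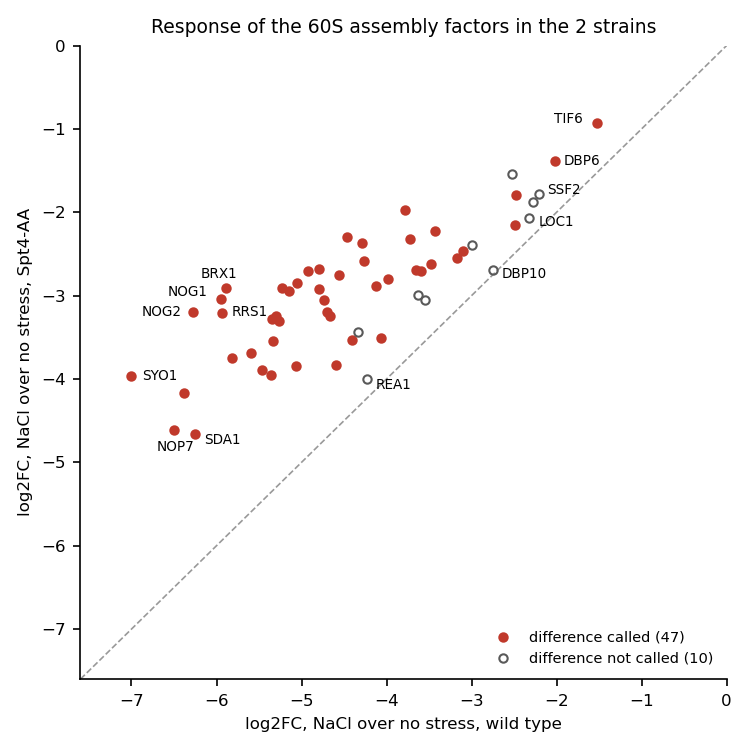
log2FC of stressed over unstressed cells for the 57 genes, wild type on the x axis and Spt4-AA on the y axis, with the line of equal response dashed. Filled points mark the 47 genes whose responses differed between the strains, and each of the 57 points lies above the line.

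Compared directly upon osmostress, 34 of 57 members were called higher in Spt4-AA than in wild type and 0 lower, beside 7.75% higher and 3.2% lower of all genes tested. At any fold, 54 members passed an adjusted p of 0.05, beside 2879 of the 6040 genes tested. The log2FC was above 0 for each of the 57, beside 2919 of the 6040. The members' median was 1.45 (range 0.05 to 3.02) against -0.02 over all genes. For 52 members each stressed Spt4-AA library lay above each stressed wild type library, beside 25.3% of all genes tested, and the exceptions were NOC3, DBP10, REA1, URB2 and LOC1. The difference in response between the strains was positive and called for 47 members and negative for 0, beside 15.0% and 11.0% of all genes tested. Its median was 1.43. Without stress, 0 of 57 members were called between the strains (0.48% of all genes tested), 1 passed an unadjusted p of 0.05, DESeq2 called 0 as well, and the median log2FC was 0.03 (range -0.39 for SYO1 to 0.19 for SDA1). The unstressed libraries of the strains did not overlap for 6 members, with YTM1, NSA1, NMD3 and LSG1 higher in each Spt4-AA library and NIP7 and SYO1 lower. The share of all genes without overlap is not given here, so these 6 are a description and not a result about the members. Without both libraries numbered apart, 38 members were called higher upon osmostress, beside 4.14% of all genes tested, and 40 for the difference in response, beside 9.31%. The stressed Spt4-AA group then holds replicate 3 alone, so the spread comes from the other 3 groups and that library is assumed to vary like them. Without replicate 2 of stressed Spt4-AA the counts were 37 and 47. Scaling the libraries to ENO1, the loading control of the study's Northern blots, gave 30 and 25. The share of all genes called is not given for the fit without replicate 2 or the fit with ENO1. In the fit with ENO1 the median of all genes was -0.33 between strains upon osmostress and -0.31 for the difference in response. In the main fit these medians were -0.02 and -0.01, so the shares above do not carry over to ENO1.

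**Figure D3:**
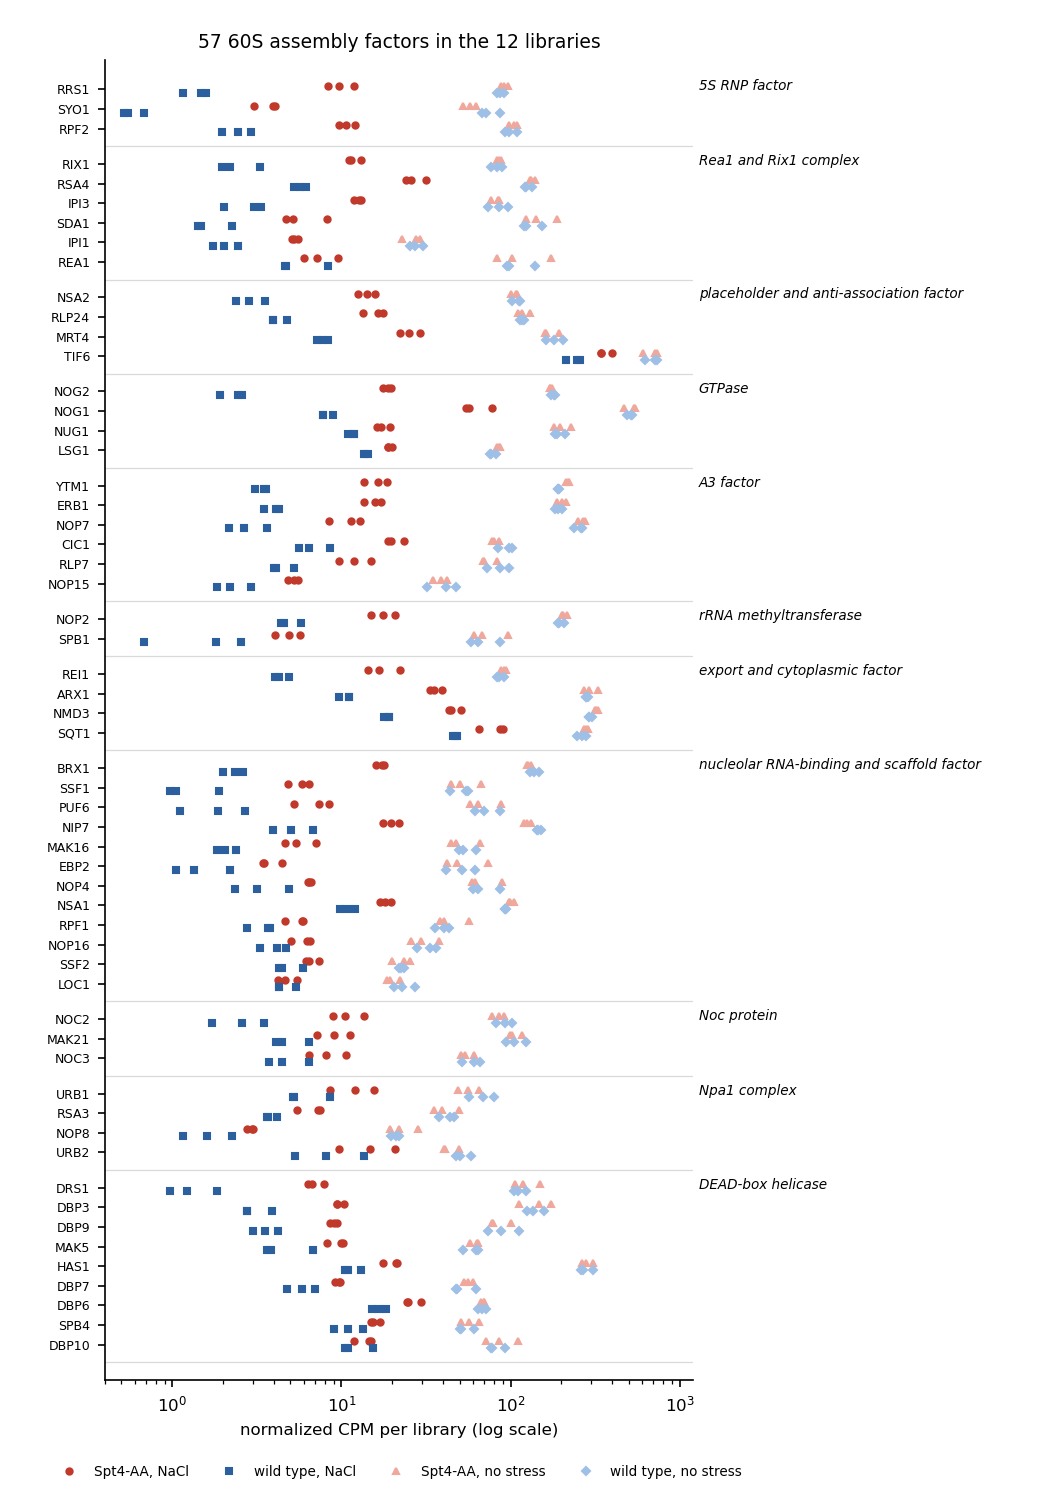
Normalized CPM (log scale) of each of the 57 genes in each of the 12 libraries, 1 point per library, grouped by role with the roles ordered by median strain difference upon osmostress. Red circles (stressed Spt4-AA) lie to the right of blue squares (stressed wild type) without overlap for 52 genes, and the pale unstressed symbols of the strains overlap for 51 genes.

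The GTPases of the pathway held the largest strain differences and also 2 of the smaller ones. NOG2 (YNR053C, chrXIV:721120-723112, minus strand), a GTPase of nucleoplasmic particles, had 17.6, 19.8 and 18.9 normalized CPM in stressed Spt4-AA cells, against 1.91, 2.58 and 2.43 in stressed wild type cells. Without stress it had 175, 172 and 172 in Spt4-AA and 180.2, 184 and 172 in wild type. The stressed groups were far apart and the unstressed ones close, and the strain difference upon osmostress was 8.12-fold (log2FC 3.02, SE 0.12, edgeR adjusted p = 2.18e-09). NOG2 is the 1 member with an intron, which holds the snoRNA gene SNR191, and only the exons of NOG2 enter its coding length. NOG1 (YPL093W, chrXVI:370978-372921, plus strand), a GTPase that joins in the nucleolus, had 56.8, 78.0 and 54.6 normalized CPM in stressed Spt4-AA cells, against 7.81, 8.96 and 7.79 in stressed wild type cells. Its unstressed values were 469, 547 and 540.0 in Spt4-AA and 487, 522 and 514 in wild type. The mutant thus kept 12.2% of the unstressed NOG1 mean and wild type 1.61%, a difference in response of 2.91 on the log2 scale (SE 0.19, edgeR adjusted p = 6.54e-07). LSG1 (YGL099W), the cytoplasmic GTPase that releases Nmd3, had 18.9, 18.8 and 19.8 in stressed Spt4-AA cells and 13.7, 14.4 and 13.8 in stressed wild type cells. These groups did not overlap, but the log2FC of 0.46 (SE 0.09, edgeR adjusted p = 0.00074) was under 2-fold, and so was that of NUG1 at 0.61. The call of LSG1 for the difference in response (0.34, SE 0.12, edgeR adjusted p = 0.048) was lost in 11 of 12 fits that left out 1 library, with adjusted p up to 0.104.

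The 5S RNP factors, which place the 5S rRNA with Rpl5 and Rpl11 in the precursor, were each called higher in Spt4-AA upon osmostress, and their median log2FC of 2.66 was the highest of the 11 roles. Summed, they stood at 24.4 ± 2.21 normalized CPM in stressed Spt4-AA and 4.43 ± 0.537 in stressed wild type cells (SD, n = 3 each), with 253 ± 5.13 and 262 ± 16.5 without stress. SYO1 (YDL063C, chrIV:338272-340134, minus strand), the chaperone that carries Rpl5 and Rpl11 into the nucleus, had 4.04, 3.04 and 3.96 normalized CPM in stressed Spt4-AA cells, against 0.676, 0.515 and 0.548 in stressed wild type cells. The wild type values rest on 11, 8 and 9 reads. SYO1 had the steepest wild type fall of the members (log2FC -7.00, SE 0.19, edgeR adjusted p = 1.64e-13), which left 0.769% of its unstressed mean, against 6.4% in Spt4-AA. RRS1 (YOR294W) had 9.69, 11.9 and 8.29 in stressed Spt4-AA cells, against 1.48, 1.16 and 1.58 in stressed wild type cells. RPF2 (YKR081C), its partner in recruiting the 5S RNP, had 9.69, 11.98 and 10.6 in stressed Spt4-AA cells, against 1.97, 2.45 and 2.92 in stressed wild type cells. Both were far apart between the strains upon osmostress, by 7.0-fold for RRS1 (log2FC 2.81, SE 0.17, edgeR adjusted p = 5.6e-08) and 4.37-fold for RPF2 (log2FC 2.13, SE 0.15, edgeR adjusted p = 1.42e-07).

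The 6 A3 factors (NOP7, ERB1, YTM1, CIC1, RLP7 and NOP15), which are needed to trim the precursor upstream of the 5.8S rRNA, were also each called higher in Spt4-AA upon osmostress, with log2FC between 1.16 and 2.26. Their sum was 80.7 ± 4.47 normalized CPM in stressed Spt4-AA and 23.8 ± 2.9 in stressed wild type cells, and 876 ± 23.9 and 860 ± 52.4 without stress (SD, n = 3 each). YTM1 (YOR272W), which binds Erb1 and is pulled off by Rea1, had 16.5, 18.6 and 13.7 in stressed Spt4-AA cells, against 3.56, 3.48 and 3.10 in stressed wild type cells (log2FC 2.26, SE 0.13, edgeR adjusted p = 3.22e-08). NOP7 (YGR103W) fell furthest of the 6 in both strains, to 11.3, 12.9 and 8.45 in stressed Spt4-AA cells and 2.15, 2.64 and 3.65 in stressed wild type cells. That left 4.12% of the unstressed mean in Spt4-AA and 1.1% in wild type. NOP15 (YNL110C) had the smallest strain difference of the 6, with 5.26, 4.80 and 5.53 in stressed Spt4-AA cells and 1.84, 2.19 and 2.92 in stressed wild type cells (log2FC 1.16, SE 0.21, edgeR adjusted p = 0.000428). The call of NOP15 was lost with library totals (0.96) and with ENO1 (0.85, edgeR adjusted p = 0.0585), which left 5 of 6.

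Both rRNA methyltransferases were called higher in Spt4-AA upon osmostress. NOP2 (YNL061W) had 14.9, 20.6 and 17.7 normalized CPM in stressed Spt4-AA cells, against 4.55, 5.80 and 4.38 in stressed wild type cells (log2FC 1.85, SE 0.14, edgeR adjusted p = 2.16e-07). SPB1 (YCL054W) had 4.04, 4.87 and 5.68 in stressed Spt4-AA cells, against 0.676, 1.80 and 2.56 in stressed wild type cells (log2FC 1.53, SE 0.35, edgeR adjusted p = 0.00268). The 3 wild type libraries of SPB1 were spread more widely than those of NOP2, on 11 to 42 reads. With ENO1 the call of SPB1 was lost (1.21, edgeR adjusted p = 0.0571), which left 1 of 2.

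Of the 6 genes of the Rea1 and Rix1 machinery, which remodels the particle in the nucleoplasm, 5 were called higher in Spt4-AA upon osmostress, with log2FC from 1.35 for IPI1 to 2.25 for RIX1 and RSA4. RSA4 (YCR072C), the particle protein that Rea1 pulls on, had 25.9, 31.6 and 24.2 normalized CPM in stressed Spt4-AA cells, against 5.66, 6.18 and 5.23 in stressed wild type cells. REA1 itself (YLR106C, chrXII:349006-363738, minus strand, also known as MDN1), the longest member with a coding length of 14733 bases, had 7.14, 9.61 and 5.996 in stressed Spt4-AA cells and 4.67, 4.64 and 8.34 in stressed wild type cells. RSA4 was 4.77-fold apart (log2FC 2.25, SE 0.12, edgeR adjusted p = 1.97e-08), while the REA1 groups overlapped (log2FC 0.35, SE 0.33, edgeR adjusted p = 0.39). REA1 still fell in both strains, with log2FC of -4.00 in Spt4-AA and -4.23 in wild type. The 4 members longer than 3 kb (REA1, URB1, URB2 and MAK21) included 0 called higher upon osmostress, with a median log2FC of 0.81 against 1.53 for the other 53. That count was 3 (MAK21, URB1 and URB2) without replicate 3 of stressed wild type and also without both Spt4-AA libraries numbered apart, and 2 (MAK21 and URB1) without replicate 2 of stressed Spt4-AA. Over the 57 members, length and the strain difference were related with a Spearman rho of -0.06, against -0.31 over 5716 genes tested with an entry in the annotation, values that share their libraries and are descriptions.

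Of the 4 placeholder and anti-association genes, 3 were called higher in Spt4-AA upon osmostress. NSA2 (YER126C), needed for processing of the second internal spacer, had 14.1, 15.8 and 12.5 normalized CPM in stressed Spt4-AA cells, against 2.83, 2.38 and 3.53 in stressed wild type cells (log2FC 2.27, SE 0.14, edgeR adjusted p = 7.21e-08). RLP24 (1.90, SE 0.13) and MRT4 (1.72, SE 0.14), which hold the places of Rpl24 and P0 in the precursor, had smaller log2FC. TIF6 (YPR016C, chrXVI:592332-593069, minus strand), which keeps the new subunit from joining a 40S subunit, stood apart in level and in response. It had 342, 398 and 341 in stressed Spt4-AA cells and 257, 249 and 214 in stressed wild type cells. Without stress it had 609, 731 and 712 in Spt4-AA and 624, 718 and 735 in wild type, and per kilobase of coding sequence it was the most abundant member in each of the 4 groups. Wild type kept 34.7% of the TIF6 level and Spt4-AA 52.6%, and the strain difference of 1.5-fold upon osmostress (log2FC 0.59, SE 0.12, edgeR adjusted p = 0.00101) was under the 2-fold limit although the groups did not overlap.

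The 12 nucleolar RNA-binding and scaffold genes spanned nearly the whole range, with 6 called higher in Spt4-AA upon osmostress and log2FC from 0.05 to 2.87. Of the 6, EBP2 (1.30) was not called with ENO1 or without both libraries numbered apart. BRX1 (YOL077C), a Brix-domain protein, had 17.3, 17.9 and 15.9 normalized CPM in stressed Spt4-AA cells, against 2.34, 2.00 and 2.62 in stressed wild type cells, a 7.32-fold difference (log2FC 2.87, SE 0.12, edgeR adjusted p = 3.52e-09). LOC1 (YFR001W), an RNA-binding protein also known for the localization of ASH1 mRNA, had 5.48, 4.67 and 4.22 in stressed Spt4-AA cells and 4.30, 4.25 and 5.36 in stressed wild type cells. Its groups overlapped (log2FC 0.05, SE 0.17, edgeR adjusted p = 0.848), and the sign turned under other scalings of the libraries. LOC1 fell in both strains, by 2.07 in Spt4-AA and by 2.33 in wild type on the log2 scale.

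SSF1 and SSF2 are paralogs that encode near-identical Brix-domain proteins of the nucleolus. Of the stretches of 50 bases in each gene, the read length, 95.96% occur at 1 place in the genome. The authors counted uniquely mapping reads alone, so reads from the rest would be left out of the counts of both genes. SSF1 (YHR066W) had 5.81, 4.80 and 6.41 normalized CPM in stressed Spt4-AA cells, against 1.04, 0.966 and 1.89 in stressed wild type cells (log2FC 2.12, SE 0.26, edgeR adjusted p = 2.17e-05). SSF2 (YDR312W) had 6.20, 6.43 and 7.40 in stressed Spt4-AA cells and 4.30, 4.45 and 5.96 in stressed wild type cells (log2FC 0.45, SE 0.16, edgeR adjusted p = 0.0367). The SSF1 groups were widely apart and the SSF2 groups nearly touched. SSF1 made up 48.4%, 42.8% and 46.4% of the RNA of the pair in stressed Spt4-AA cells, against 19.5%, 17.9% and 24.0% in stressed wild type cells. In an exact two-sided permutation test of this share p was 0.1, the smallest value that 3 against 3 libraries allow. Without stress the share was 69.9 ± 3.82% in Spt4-AA and 69.3 ± 2.36% in wild type (SD, n = 3 each), so SSF1 was the more abundant of the pair before stress and the less abundant after it in both strains.

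The export and cytoplasmic factors had 3 of 4 genes called higher in Spt4-AA upon osmostress. REI1 (YBR267W), which removes Arx1 from the exported particle, had 16.7, 22.2 and 14.4 normalized CPM in stressed Spt4-AA cells, against 4.30, 4.06 and 4.87 in stressed wild type cells (log2FC 2.00, SE 0.15, edgeR adjusted p = 2.72e-07). The export factors ARX1 and NMD3 had log2FC of 1.77 and 1.30, and NMD3 was not called with ENO1. SQT1 (YIR012W), the chaperone of Rpl10, had 87.0, 89.9 and 65.0 in stressed Spt4-AA cells and 48.6, 47.4 and 45.9 in stressed wild type cells, without overlap but under 2-fold (log2FC 0.77, SE 0.11, edgeR adjusted p = 8.95e-05). REI1 overlaps the dubious reading frame YBR266C on the other strand, which had at most 1 count in any library.

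The 9 RNA helicases of the DEAD-box family unwind rRNA and snoRNA pairings. Upon osmostress 3 of 9 were called higher in Spt4-AA (DRS1, DBP3 and DBP9), and the median log2FC of the 9 was 0.79. For the difference in response 7 of 9 were called. Scaling to ENO1 left only DRS1 called for that difference, and library totals left DRS1, DBP3 and DBP9. DBP7 also lost that call in several fits that left out 1 library. DRS1 (YLL008W) had 6.31, 7.92 and 6.73 normalized CPM in stressed Spt4-AA cells, against 1.84, 0.966 and 1.22 in stressed wild type cells (log2FC 2.36, SE 0.22, edgeR adjusted p = 1.94e-06). DBP6 (YNR038W), which works with the Npa1 complex, had 24.9, 24.5 and 29.7 in stressed Spt4-AA cells and 15.2, 16.7 and 18.4 in stressed wild type cells (log2FC 0.66, SE 0.11, edgeR adjusted p = 0.000225). DBP10 (YDL031W) had 14.9, 11.9 and 14.5 in stressed Spt4-AA cells and 10.6, 10.9 and 15.4 in stressed wild type cells, which overlap (log2FC 0.17, SE 0.18, edgeR adjusted p = 0.468). DBP10 kept 15.4% of its unstressed mean in Spt4-AA and 14.9% in wild type, and its difference in response of 0.05 (SE 0.24, edgeR adjusted p = 0.897) was the smallest of the 57. MAK5 was not called between strains upon osmostress, with a log2FC just short of 1 that rounds to 1.00.

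The Noc proteins and the Npa1 complex act on the earliest particles. Of the 3 Noc genes 1 was called higher in Spt4-AA upon osmostress, NOC2 (YOR206W), with 10.5, 8.93 and 13.7 normalized CPM in stressed Spt4-AA cells and 1.72, 2.58 and 3.47 in stressed wild type cells (log2FC 2.09, SE 0.22, edgeR adjusted p = 4.23e-06). NOC3 (YLR002C) had 8.14, 6.43 and 10.6 in stressed Spt4-AA cells and 4.43, 3.74 and 6.45 in stressed wild type cells, where the lowest mutant and the highest wild type library crossed (log2FC 0.79, SE 0.21, edgeR adjusted p = 0.00761). Of the 4 Npa1 complex genes 0 were called, with log2FC from 0.74 to 0.94. Without both Spt4-AA libraries numbered apart, 3 of 3 Noc genes and 2 of 4 Npa1 complex genes were called. URB1 (YKL014C) had 11.96, 8.53 and 15.5 in stressed Spt4-AA cells and 5.22, 5.15 and 8.52 in stressed wild type cells (log2FC 0.94, SE 0.24, edgeR adjusted p = 0.00545). URB2 (YJR041C) had 14.7, 9.68 and 20.6 in stressed Spt4-AA cells and 5.35, 8.12 and 13.7 in stressed wild type cells (log2FC 0.74, SE 0.29, edgeR adjusted p = 0.0498). Replicate 2 was the lowest stressed Spt4-AA library for NOC2, NOC3, URB1 and URB2, and replicate 3 was the highest stressed wild type library for each of them and for 40 of the 57 members. Without replicate 2 of stressed Spt4-AA, URB1 was called (log2FC 1.12). Without replicate 3 of stressed wild type, NOC3 (log2FC 1.04), URB1 (1.22) and URB2 (1.16) were called and the count of members called higher was 41. The share of all genes called in that fit is not given. Over the 12 fits that left out 1 library the log2FC ran from 0.58 to 1.04 for NOC3 and from 0.71 to 1.22 for URB1, and for URB2 from 0.43 to 1.16 with edgeR adjusted p up to 0.21.

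The members were next set beside other genes of ribosome production, as counts and medians. Of the 27 other pre-60S factors 7 were called higher in Spt4-AA upon osmostress (median log2FC 0.50), of 76 large-subunit ribosomal protein (RPL) genes 63 (1.21), and of 18 UTP genes, which encode small-subunit processome proteins, 12 (1.42). In each of these 3 lists 0 genes were called lower. These counts rest on the libraries in unequal measure: without both stressed Spt4-AA libraries numbered apart they were 3 of 27 (median 0.51), 4 of 76 (0.68) and 13 of 18 (1.67), beside 38 of 57 (1.42) for the members. With ENO1 they were 2, 17 and 10. These fits of the lists were chosen after the data had been seen. In wild type, 25 of 27, 75 of 76 and 18 of 18 were called lower upon osmostress in the same order of lists, with medians of -2.84, -2.57 and -3.94, against -4.47 for the members. In Spt4-AA the counts were 24, 58 and 17, with medians of -2.24, -1.33 and -2.60, against -2.91 for the members. The PAC core was in 77.8% of promoters of the other pre-60S factors, 77.8% of the UTP promoters and 9.21% of the RPL promoters.

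**Figure D4:**
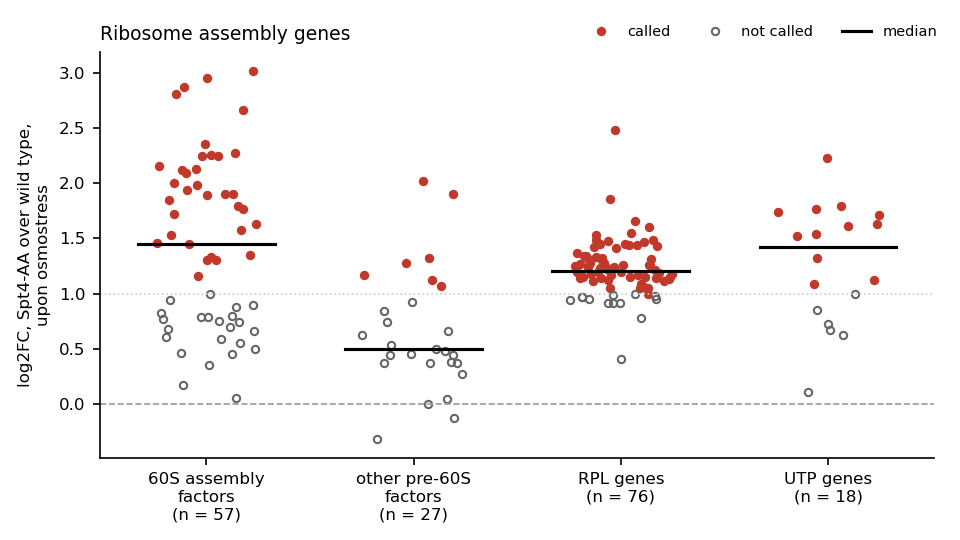
log2FC of Spt4-AA over wild type upon osmostress for each gene of 4 lists, with genes called at an adjusted p under 0.05 and at least 2-fold filled and the median of each list as a bar, from the 12 libraries. The medians are 1.45 for the 60S assembly factors, 0.50 for other pre-60S factors, 1.21 for RPL genes and 1.42 for UTP genes, and without both libraries numbered apart they are 1.42, 0.51, 0.68 and 1.67.

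Within the members, promoters with both cores had a median strain difference upon osmostress of 1.87 (28 genes), those with a PAC core alone 0.81 (24 genes) and those with an RRPE core alone 1.44 (SPB1, NSA1, RIX1 and IPI1). IPI3, the 1 member with neither core by this search, had 2.16. Whether the cores bear on the strain difference was not tested. In the response to osmostress, the medians were -3.04 in Spt4-AA and -4.79 in wild type for both cores, and -2.73 in Spt4-AA and -3.81 in wild type for PAC alone. The classes overlap widely, since both cores were also present in REA1 (0.35), LSG1 (0.46) and SPB4 (0.50), and a PAC core alone in DRS1 (2.36) and REI1 (2.00). The unstressed wild type level per kilobase and the strain difference were related with a Spearman rho of 0.44 over the 57 members, which share their libraries and depth.

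**Figure D5:**
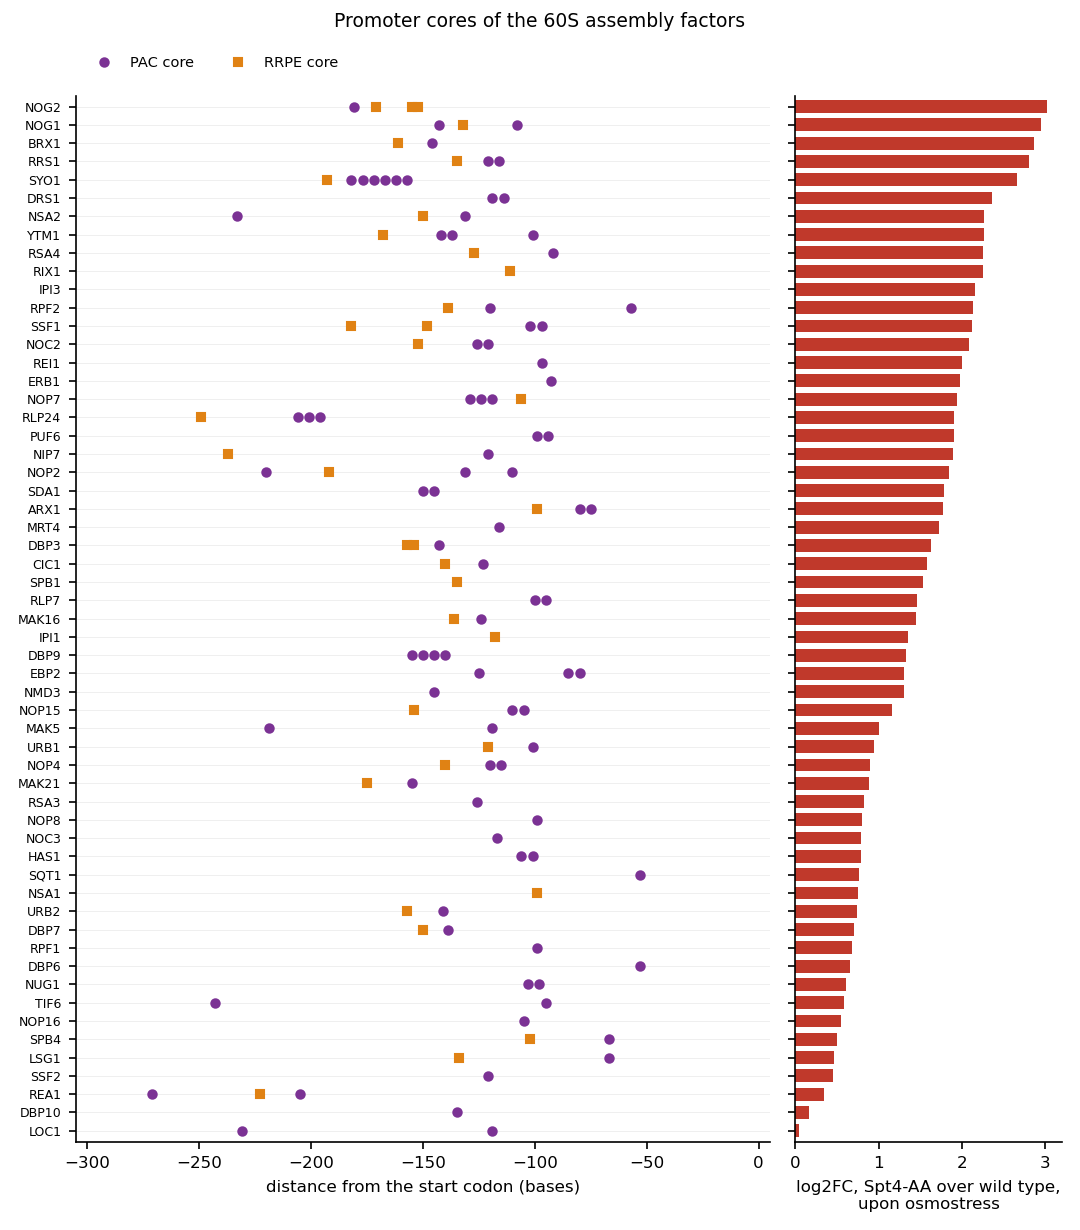
Positions of the PAC core (circles) and RRPE core (squares) in the 300 bases before the start codon of each of the 57 genes (left), with the genes ordered by their log2FC of Spt4-AA over wild type upon osmostress (bars, right). PAC cores gather 80 to 160 bases before the start codon, and the 5 genes at the top, with log2FC of 2.66 to 3.02, hold both cores.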

How the data were processed

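Poly(A) RNA of 12 cultures (4 groups of 3 biological replicates) was sequenced as stranded libraries with single-end reads of 50 bases. The authors deposited raw counts per gene in 1 table; per the submitters' processing notes, reads were mapped with TopHat2 2.1.0 to sacCer3 (R64) and counted with featureCounts 1.5.1. Whether featureCounts used the strand of the reads is not given in the sources used here. The deposited counts came to 12903162 to 21909524 per library, and the median SE of a member's log2FC was 0.17 between strains upon osmostress and 0.217 for the difference in response. Counts were scaled by TMM, genes with low counts were removed by filterByExpr (6040 of 7126 genes kept), and 1 model over the 4 groups was fitted with the quasi-likelihood test of edgeR 4.0.16 in R 4.3.3, with Benjamini-Hochberg adjustment over all 6040 genes. A gene was called at an adjusted p under 0.05 and an absolute log2FC of at least 1, and the difference in response (interaction of strain and stress) at the adjusted p alone.

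The members and lists were chosen with earlier results of these data known. Values per library are given for 28 members: NOG1 and NOG2, the 3 members most changed and the 3 nearest to no change between strains upon osmostress, likewise for the wild type response, SSF1 and SSF2, and in each role the members with the largest and smallest strain difference. Promoters are the 300 bases before the annotated start codon in the RefSeq R64 genome, and their sequences are credited to RefSeq. Alternatives were other scalings (RLE, library totals, ENO1), other filters, DESeq2 1.42.0, fits of the compared groups alone, a test against a log2FC of 1, a replicate block, a term for library numbers and leaving out each library. The term marked only replicates 1 and 2 of stressed Spt4-AA. The level of that group then rested on replicate 3, as when both were left out, so the term is not a separate check. Tables were joined with pandas 2.3.3 and numpy 2.4.6. The edgeR fit was also run on simulated counts, which held no wild type response to osmostress. The outcome of that run is not given and is not used as support here.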

Additional observations from a re-analysis of the deposited data

Results flagged for a closer look

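The responses to osmostress differed between Spt4-AA and wild type, by the interaction test of edgeR with Benjamini-Hochberg adjustment over all genes, for 47 of the 57 members, each with a smaller fall in Spt4-AA. Among the members given by library and called, the differences in response on the log2 scale were 3.07 for NOG2, 3.04 for SYO1, 2.98 for BRX1, 2.91 for NOG1 and 2.73 for RRS1. They were 2.32 for NSA2, 2.21 for NOC2, 2.21 for DRS1, 2.17 for RSA4, 2.08 for RPF2, 2.07 for YTM1 and 2.06 for SSF1. REI1 had 1.93, NOP7 1.89, NOP2 1.78, SPB1 1.42, NOP15 1.23 and URB1 1.20. The smallest of the called differences were 0.90 for NOC3, 0.69 for SQT1, 0.63 for DBP6, 0.60 for TIF6 and 0.34 for LSG1. DBP10, REA1, LOC1, SSF2 and URB2 are also given by library but were not called. Several of these calls depended on the fit. When 1 library was left out, LSG1 lost its call in 11 of 12 fits, NOC3 in 6 (adjusted p up to 0.0793) and SPB1 in 2. LSG1, NOC3, SPB1, DBP6 and URB1 lost theirs with library totals and with ENO1, and NOP15 with ENO1. TIF6 and SQT1 lost theirs with ENO1, and TIF6, SQT1, LSG1 and SPB1 without both libraries numbered apart. Replicate 2 of stressed Spt4-AA held 139 counts on LEU2, MET17 and URA3, genes deleted in this strain background, against at most 2 in any other library, and without it 47 members were called, of which 46 were among the 47 above, with LSG1 lost and URB2 gained.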

How the results depend on the processing

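The count of members higher in Spt4-AA than in wild type upon osmostress was 34, and 26 to 38 under the other scalings, filters, tools and models, with 34 to 41 when 1 library was left out. The difference in response was called for 47 members, 25 with scaling to ENO1, 34 with library totals and 42 to 49 when 1 library was left out. The share of all genes called is not given for the other scalings, filters, tools and tests or for the fits that left out 1 library. Those counts therefore have no background beside them, and the shares of the main fit do not carry over to them. With ENO1 the median of all genes moved by more than 0.1, to -0.33 between strains upon osmostress and -0.31 for the difference in response, and the members' medians were 1.15 and 1.13. Library totals moved these medians of all genes to -0.22 and -0.20. The counts of members lower upon osmostress were 55 to 57 in Spt4-AA and 56 to 57 in wild type. Under the main settings and each alternative except the test against a log2FC of 1, 29 members were called between strains upon osmostress and 24 for the difference in response.

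Among the members given by library, signs turned for 3 between strains upon osmostress or for the difference in response. None of the 3 was called. DBP10 had -0.04 between strains upon osmostress with library totals and -0.14 with ENO1, and for the difference in response -0.14, -0.25 and, with 1 library left out, -0.08 to 0.24. REA1 had -0.03 with ENO1 between strains, and for the difference in response -0.14 with ENO1, -0.10 with a term for library numbers and -0.09 without both libraries numbered apart. LOC1 had -0.17 with library totals, -0.29 with ENO1, -0.14 with the term, -0.13 without both libraries and -0.06 to 0.16 with 1 library left out, and -0.05 with ENO1 for the difference in response. The cause was not tested.

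Replicate numbers were used in each group, and 9 of 18 same-numbered pairs had a correlation over 0.1 (range -0.438 to 0.416), so the numbers were not taken to pair the samples. With a replicate block the counts were 35 between strains upon osmostress and 47 for the difference in response. Depth limits SYO1 and SPB1 most, with as few as 8 and 11 reads in a stressed wild type library.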

Other observations

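Among the 27 other pre-60S factors, 7 were called higher in Spt4-AA upon osmostress: RRB1 (log2FC 2.02), ALB1 (1.90), CGR1 (1.32), RIX7 (1.28), RRP1 (1.17), RRP8 (1.12) and YVH1 (1.07). Without both stressed Spt4-AA libraries numbered apart 3 of them were called, RRB1, ALB1 and RIX7, and with ENO1 2, RRB1 and ALB1. Rrb1 is the chaperone of Rpl3, Alb1 the partner of Arx1, Rix7 an ATPase of the nucleolar particle and Yvh1 the phosphatase that releases Mrt4. REH1, a paralog of REI1, had log2FC of -0.32 between strains upon osmostress and of 0.35 in Spt4-AA and 0.72 in wild type for the response to osmostress, and was not called in any of the 3. REI1 fell in both strains. Whether the paralogs differ in their response was not tested.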
